A study of Mus musculus with 4 samples.

Results

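The 106 genes described here encode enzymes that build the sugar chains of proteins and lipids in the ureter, or the sulfotransferases that decorate them. They were chosen by name, as every gene on the array whose symbol begins with B3gnt, B3galt, B4galt, B4galnt, Galnt, Gcnt, St3gal, St6gal, St6galnac, St8sia, Fut, Chst, Hs3st, Hs6st, Ndst or Has followed by a digit, out of 24357 named genes. They are covered by 149 probes, and 39 of the genes have several; the brightest probe stands for the gene. The set includes a pseudogene, Fut4-ps1, and an antisense transcript, Has2os. Of the 106 genes, 89 were well above background in most of their spots on all arrays in at least 1 genotype and were tested. Both genotypes were in the NMRI background at E18.5, shortly before birth, and total RNA came from mechanically dissected whole ureters. The mutant, ΔNp63-cKO (cKO below), was Pax2-cre/+; Trp63(dN-flox/dN-flox), so that the ΔN form of the transcription factor p63 was floxed on both alleles and cre was driven by Pax2. The control was Trp63(dN-flox/?), with at least 1 floxed allele and no cre in its labels. Each of the 4 arrays carried 1 cKO and 1 control RNA, array 2 a male pair and the others female pairs, with the cKO in red on arrays 1 and 3 and in green on arrays 2 and 4. The labels do not say whether an RNA came from 1 embryo or several, so p-values describe the spread between these arrays only. In such whole-tissue RNA, fewer cells of a type and less RNA per cell cannot be told apart.

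As background, many glycans are built in the Golgi, where a glycosyltransferase typically adds 1 kind of sugar in 1 kind of linkage. Galnt enzymes start mucin-type O-glycans by placing N-acetylgalactosamine on serine or threonine. Gcnt and B3gnt enzymes branch and extend the chains, B3galt, B4galt and B4galnt enzymes add galactose or N-acetylgalactosamine, and sialyltransferases and fucosyltransferases cap the ends. Chst, Ndst, Hs3st and Hs6st enzymes place sulfate on chondroitin, keratan or heparan sulfate, which bind growth factors and matrix proteins, and Has enzymes make hyaluronan. The urothelium, which lines the ureter, carries a glycan coat on its surface, and p63 in its ΔN form is known as a regulator of basal epithelial cells.

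Trp63 itself had a ratio of -2.18 ± 0.50 (log2 of cKO over control; SD, n = 4; limma adjusted p = 0.00207). The labelled tissue carried its markers: uroplakin, keratin and smooth muscle genes were well above background in both genotypes. All 9 tested basal urothelium markers, the targeted Trp63 among them, fell in the cKO, with a median of -2.40. Their summed intensity was 33100 to 42100 in the cKO against 195000 to 236000 in the control. Of 10 general epithelial markers 5 fell, with a median of -0.53 (-0.99, -0.24, -0.48 and -0.66 on arrays 1 to 4), and of 10 superficial and intermediate markers 1 fell, with a median of -0.45. No smooth muscle, mesenchymal, endothelial, leukocyte, nerve or skeletal muscle marker was called, and their list medians lay between -0.05 and 0.19. Among other lists, 2 of 7 adrenal cortex markers were higher (median 0.38), and 2 of 8 kidney tubule markers were higher and 2 lower (-0.06). In the mesothelial list 1 of 6 markers was higher, Msln at 2.84, and in the male reproductive list 1 of 4, Prm1 at 3.19. Both of these lists had a median of -0.05. Of 11 hepatocyte markers 5 were called higher, with list medians of 2.26, 2.56, 1.32 and 0.53 on arrays 1 to 4. Trf, the brightest of the list, was not called and had a ratio of -0.56 ± 1.19. Array 1 had more spots above background (90.0% in green, 82.6% in red) than the other arrays, which reached 76.5% and 72.9%.

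**Figure D1:**
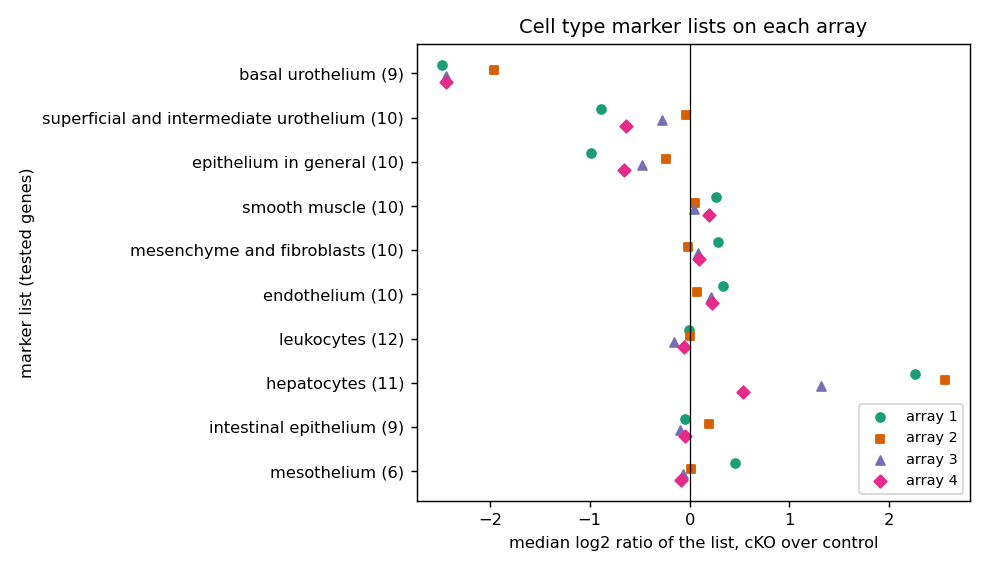
Median log2 ratio (cKO over control, x axis) of each list of cell type markers (y axis, with the number of tested genes) on each of the 4 arrays (points). Basal markers lie between -2.48 on array 1 and -1.96 on array 2, while the hepatocyte list ranges from 0.53 on array 4 to 2.56 on array 2.

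Among the 89 tested genes, 8 rose and 8 fell (limma, adjusted p under 0.05), which is 8.99% in each direction. Over all 18161 tested genes 2.92% were called higher and 5.63% lower. The genes that fell were Galnt6, Fut4, Fut9, Galnt14, Hs3st5, Hs6st1, B4galnt1 and Galnt18, and those that rose were Gcnt3, B3galt5, Galnt5, B3galt1, Chst13, Chst8, Chst3 and Galnt15. Each of the 16 was well above background in both genotypes on 4 of 4 arrays, and its 4 ratios shared a sign. Before adjustment, 19 genes were higher and 18 lower at p under 0.05. The median ratio of the set was 0.02 against 0.00 for all genes, and the medians by array were 0.10, -0.04, 0.02 and 0.04. Its spread was wider, with quartiles of -0.10 and 0.17 against -0.08 and 0.08, and 44.9% of its genes kept 1 sign on every array, compared with 30.6% of all tested genes. The SD over arrays was also larger, at a median of 0.17 against 0.13. A coefficient for sex in the limma fit rests on 1 male pair, with no spread within that arm, and is not read here.

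**Figure D2:**
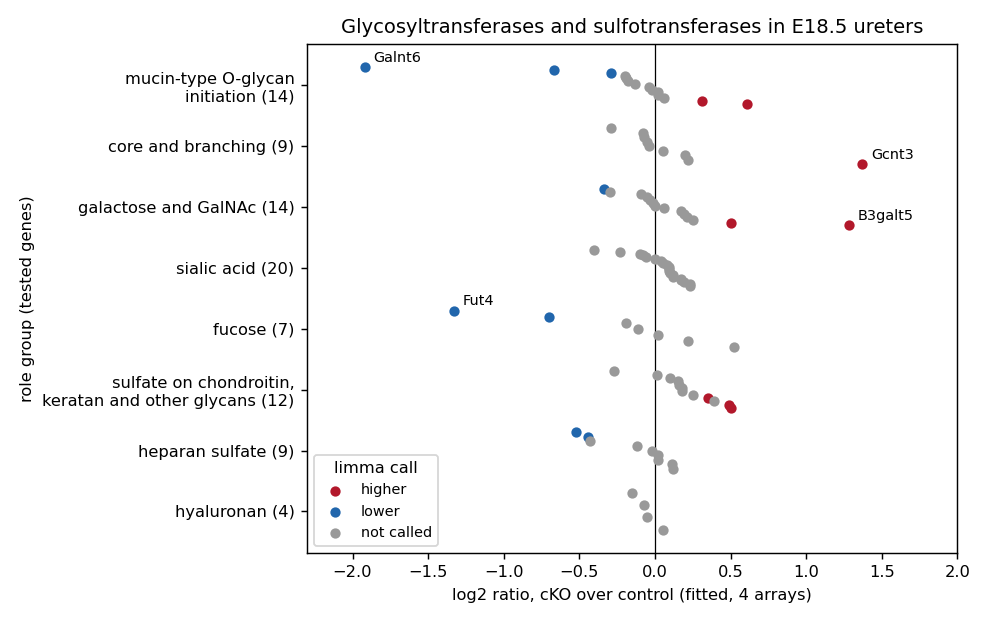
Fitted log2 ratio (cKO over control, x axis) of the 89 tested genes in 8 role groups (y axis, number tested in brackets), coloured by the limma call. Galnt6 and Fut4 lie below -1, Gcnt3 and B3galt5 above 1, and no gene of the sialic acid or hyaluronan group was called.

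**Figure D3:**
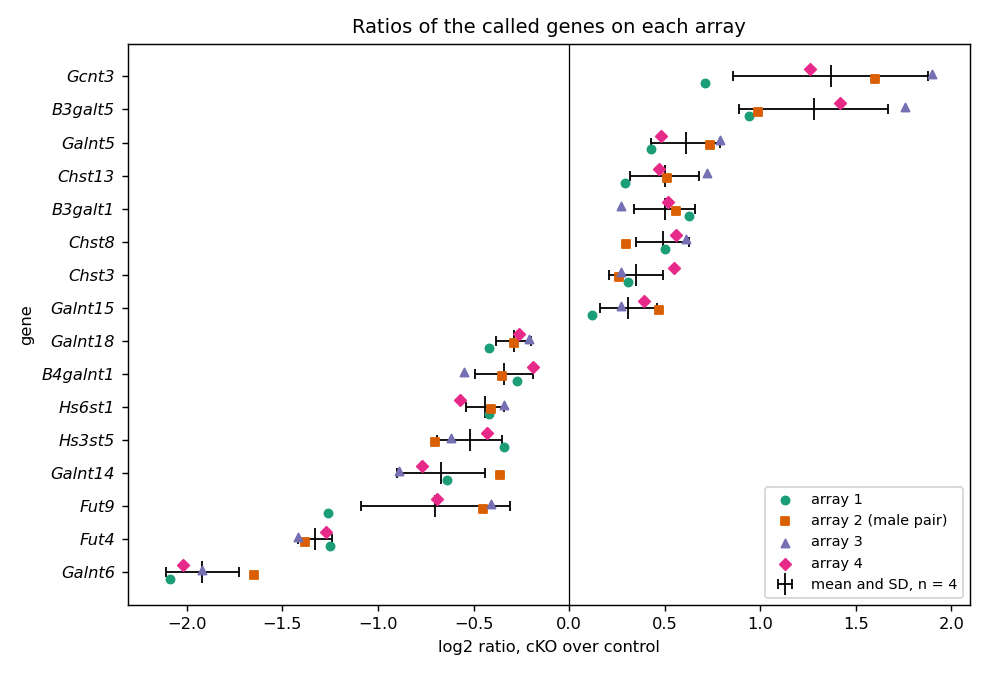
Log2 ratio of the 16 called genes (y axis) on each array (points) with the mean and SD over the 4 arrays (bars). Every point of a gene lies on the same side of 0; Galnt6 and Fut4 are tightly grouped, whereas Gcnt3 ranges from 0.71 on array 1 to 1.90 on array 3.

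The enzymes that start mucin-type O-glycans were divided. Of 14 tested Galnt genes, 3 fell, 2 rose and 9 did not pass, and their median was -0.08. Galnt6 had the lowest ratio of the 89 genes. Its log2 intensity was 8.18, 8.74, 8.68 and 8.69 in the cKO RNAs of arrays 1 to 4, and 10.26, 10.39, 10.60 and 10.72 in the control RNAs. The groups were separated by more than 1 log2 unit, with the lowest control above the highest cKO RNA. The ratio was -1.92 ± 0.19, a 3.79-fold fall (adjusted p = 0.00057). The probe lies at chr15:100522237-100522296 (mm9), and the second Galnt6 probe fell as well, with ratios of -1.17, -1.26, -1.43 and -1.80 (mean -1.41, adjusted p over probes 0.00222). The call held under all 16 alternative settings (of background correction, normalisation, filter, probe choice, model or arrays left out), with ratios between -2.16 and -1.67.

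The RefSeq promoter table (GRCm38.p6) holds windows for 78 of the 106 genes, 12 of them called. The windows of Galnt6, Fut4 and B3galt5 are printed, because these are the genes whose calls held under all alternative settings, and because the deleted factor belongs to the p53 family. Each line gives the 250 bases before a start on the coding strand. Capitals mark matches to CNNGNNNNNNCNNG, the pair of core letters shared by p53-family sites, which reads the same on both strands. Such a loose pattern was found in 63.5% of 32851 windows of all genes and in 82.2% of the 101 windows of these enzymes, whose median GC content was 61.2% against 52.4%. The stricter CATGNNNNNNCATG was found in 0.49% of all windows and in 0 of the 101. For Galnt6, 2 starts are listed, at chr15:100720478-100720727 and chr15:100729377-100729626, both on the minus strand.
Galnt6, first window: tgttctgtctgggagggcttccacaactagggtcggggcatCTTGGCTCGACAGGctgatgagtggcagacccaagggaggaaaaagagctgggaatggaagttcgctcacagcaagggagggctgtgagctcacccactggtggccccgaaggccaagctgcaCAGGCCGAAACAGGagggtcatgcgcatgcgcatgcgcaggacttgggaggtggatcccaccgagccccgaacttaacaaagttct
Galnt6, second window: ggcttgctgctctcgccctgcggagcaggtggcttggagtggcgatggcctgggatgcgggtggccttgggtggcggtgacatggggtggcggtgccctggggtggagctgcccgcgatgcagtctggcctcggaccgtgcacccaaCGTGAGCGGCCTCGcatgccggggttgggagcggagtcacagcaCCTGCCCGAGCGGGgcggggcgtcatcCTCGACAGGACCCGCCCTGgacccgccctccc

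Galnt14, another initiating transferase, was lower on all arrays, at -0.64, -0.36, -0.89 and -0.77 (mean -0.67 ± 0.23, 1.59-fold, adjusted p = 0.0141, and 0.0572 without array 3; -0.39 with the mean of all probes). Its cKO levels of 8.55 to 8.86 lay below the control levels of 9.21 to 9.51. The second Galnt14 probe, which is dimmer, had a mean of -0.12 (adjusted p over probes 0.251). Galnt18 fell by 0.29 ± 0.09 (-0.42, -0.29, -0.21 and -0.26; adjusted p = 0.0458). The cKO levels of Galnt18 reached 10.82 and its control levels began at 11.00, and leaving out any array raised the adjusted p to between 0.0754 and 0.183.

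Galnt5 and Galnt15 moved the other way. Galnt5 levels were 9.25, 9.69, 9.75 and 9.41 in the cKO and 8.82, 8.94, 8.95 and 8.94 in the control, with no overlap. The rise was 1.53-fold, with ratios of 0.43, 0.74, 0.79 and 0.48 (mean 0.61 ± 0.18, adjusted p = 0.016, and 0.054 without array 2). Galnt15 rose by 0.31 ± 0.15 (0.12, 0.47, 0.27 and 0.39; adjusted p = 0.0322), a call that did not hold without any single array (adjusted p 0.0855 to 0.127). One cKO RNA of Galnt15, that of array 1 at 9.86, lay within the control range of 9.69 to 9.98, and its second probe had a mean of 0.08 (adjusted p over probes 0.562). The 2 brightest Galnt genes that were not called, Galnt2 and Galnt16, had ratios of -0.18 ± 0.13 (adjusted p = 0.187) and 0.06 ± 0.20 (0.781). Galnt1, Galnt4, Galnt10 and Galnt11 lay between -0.04 and 0.02, and Galnt9 and Galnt13 were not tested.

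Among the branching and extending enzymes, Gcnt3 rose and the other 8 tested genes did not pass. Gcnt3 makes the branched cores of mucin O-glycans and is known from mucin-secreting epithelia such as the gut. Its log2 intensity was 11.07, 12.30, 12.10 and 11.97 in the cKO and 10.36, 10.70, 10.21 and 10.71 in the control. The lowest cKO RNA, on array 1, was above the highest control. The rise was 2.58-fold, with ratios of 0.71, 1.60, 1.90 and 1.26 (mean 1.37 ± 0.51, adjusted p = 0.0175). The adjusted p was 0.0595 without array 2, 0.0517 without array 4 and 0.0628 with the deposited value table, while the ratio stayed between 1.07 and 1.66 under the 16 settings. The probe lies at chr9:69879436-69879495 (mm9).

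Markers of intestinal epithelium were counted beside Gcnt3 and B3galt5, because both are known from the gut. Of 9 tested markers 2 rose and 2 fell, with a median of 0.04 and medians of -0.05, 0.19, -0.10 and -0.05 on arrays 1 to 4. The summed intensity was 29800 to 54900 in the cKO and 33900 to 44400 in the control. Most of this sum is Krt20, which is also in the superficial and intermediate urothelium list. Its mean log2 intensity was 14.99, against 11.93 for Lgals4, the next brightest, so the sum does not measure intestinal cells. Lgals4, a galectin of the gut, rose (0.11, 1.47, 1.39 and 1.23; adjusted p = 0.0429), and Phgr1 was called higher, with no size given, since its control RNA passed the background criterion on 1 of 4 arrays. Fabp2 and Guca2a fell, by 0.34 and by 1.04, and Cdx2, the defining factor of intestinal epithelium, was not well above background in all RNAs of either genotype. The part of such cells in the Gcnt3 ratio was not tested.

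Gcnt1, the widely expressed branching enzyme, had a ratio of 0.05 ± 0.29 and Gcnt2, which branches polylactosamine, one of -0.05 ± 0.29 (adjusted p = 0.849 and 0.864). In both, array 2 was the highest, at 0.47 and 0.32. B3gnt2, the main polylactosamine extending enzyme, was at -0.43, -0.30, -0.21 and -0.21 (mean -0.29 ± 0.11, adjusted p = 0.054). B3gnt5, which starts the lacto-series of glycolipids, was at 0.22 ± 0.22 (0.223), and B3gnt9 at 0.20 ± 0.18 (0.222). B3gnt4, B3gnt6 and B3gnt8 lay between -0.08 and -0.04. Of these, B3gnt4 and B3gnt6 were dim, at mean log2 intensities of 6.82 and 6.79. B3gnt3, B3gnt7, Gcnt4 and Gcnt7 were not tested. With Gcnt3 included the median of the 9 tested genes was -0.04, and it was above 0 under 5 of the 16 settings.

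The galactose and N-acetylgalactosamine group had 2 rises and 1 fall among 14 tested genes, with a median of 0.03 that was below 0 under 2 settings. B3galt5, which makes type-I chains, the backbone of Lewis a and Lewis b antigens, had log2 intensities of 8.38, 8.90, 9.39 and 9.29 in the cKO and 7.44, 7.90, 7.63 and 7.87 in the control. The 4 cKO RNAs all lay above the 4 controls. The ratios were 0.94, 0.99, 1.76 and 1.42, a 2.43-fold rise (mean 1.28 ± 0.39, adjusted p = 0.00953). The call held under all 16 settings, with ratios between 1.07 and 1.67, and its probe lies at chr16:96541170-96541229 (mm9). Its 3 promoter windows on the plus strand of GRCm38.p6 are chr16:96235551-96235800, chr16:96273263-96273512 and chr16:96280782-96281031, which hold 9, 6 and 20 CpG dinucleotides, marked as for Galnt6.
B3galt5, first window: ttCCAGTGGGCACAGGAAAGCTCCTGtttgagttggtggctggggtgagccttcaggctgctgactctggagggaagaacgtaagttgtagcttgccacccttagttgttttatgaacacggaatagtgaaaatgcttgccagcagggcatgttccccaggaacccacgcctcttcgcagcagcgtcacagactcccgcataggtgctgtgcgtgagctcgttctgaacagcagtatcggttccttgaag
B3galt5, second window: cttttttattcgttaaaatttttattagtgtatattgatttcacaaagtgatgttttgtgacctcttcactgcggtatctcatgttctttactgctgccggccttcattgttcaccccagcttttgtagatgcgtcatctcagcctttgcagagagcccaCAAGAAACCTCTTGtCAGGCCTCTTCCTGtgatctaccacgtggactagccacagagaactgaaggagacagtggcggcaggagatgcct
B3galt5, last window: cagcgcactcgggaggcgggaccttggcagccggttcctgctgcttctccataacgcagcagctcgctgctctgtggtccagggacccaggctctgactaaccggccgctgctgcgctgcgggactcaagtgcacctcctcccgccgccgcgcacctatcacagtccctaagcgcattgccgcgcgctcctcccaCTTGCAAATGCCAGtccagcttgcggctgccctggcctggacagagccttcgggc

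B3galt1, a second enzyme of type-I chains, was higher at 0.63, 0.56, 0.27 and 0.52 (mean 0.50 ± 0.16, 1.41-fold, adjusted p = 0.0201). Its cKO levels of 11.34 to 11.49 did not overlap with the control levels of 10.85 to 11.08. Leaving out array 1, 2 or 4 gave adjusted p-values of 0.0571, 0.07 and 0.0759. With B3galt4 at 0.17 ± 0.06 (adjusted p = 0.142) and B3galt6 at -0.01 ± 0.10 (0.916), the 4 tested B3galt genes had a median of 0.33.

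B4galnt1, the GM2 and GD2 ganglioside synthase, fell by 0.34 ± 0.15 (-0.27, -0.35, -0.55 and -0.19; adjusted p = 0.0475). Its levels were 7.16, 8.09, 8.17 and 8.18 in the cKO and 7.43, 8.44, 8.71 and 8.37 in the control, so that the fall shows within arrays and the groups overlap across them. The call did not hold without any single array (adjusted p 0.0706 to 0.149), nor in fits of the separate channels with the array as a block (0.14) or with no block (0.91). B4galnt2, which makes the Sda antigen, was at 0.06, -0.52, -0.30 and -0.44 (mean -0.30 ± 0.26, adjusted p = 0.0794), and its cKO RNA passed the background criterion on 3 arrays of 4. Its ratio was -0.74 with Agilent's processed signals, -0.55 with no offset and -0.07 with the deposited value table. The 7 B4galt genes were all tested and none was called. B4galt6, a lactosylceramide synthase, was the nearest at 0.25 ± 0.09 (0.23, 0.37, 0.22 and 0.17; adjusted p = 0.0706). B4galt1 and B4galt4 were at -0.09 ± 0.24 (0.569) and 0.19 ± 0.13 (0.18). B4galt2 differed with the dye, at 0.69 and 0.50 on arrays 1 and 3, where the cKO was red. On arrays 2 and 4, where it was green, B4galt2 was at -0.30 and -0.05 (adjusted p of the fit with a dye term, 0.153). B3galt2 and B4galnt3 were not tested.

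Of 7 tested fucosyltransferases 2 fell and none rose. Fut4, which adds fucose to lactosamine and makes the Lewis x antigen, had log2 intensities of 8.78, 9.05, 9.08 and 8.72 in the cKO and 10.02, 10.43, 10.50 and 9.98 in the control. The highest cKO level was thus below the lowest control level. The ratios of -1.25, -1.38, -1.42 and -1.27 differed little between arrays (mean -1.33 ± 0.09, a 2.51-fold fall, adjusted p = 0.00057). The second Fut4 probe fell by 0.57 (-0.44, -0.63, -0.61 and -0.59; adjusted p over probes 0.0054), and the call held under all 16 settings, with ratios between -1.48 and -0.95. The brighter probe lies at chr9:14553224-14553283 (mm9). Its promoter window is chr9:14752123-14752372 on the minus strand of GRCm38.p6, marked as above.
Fut4: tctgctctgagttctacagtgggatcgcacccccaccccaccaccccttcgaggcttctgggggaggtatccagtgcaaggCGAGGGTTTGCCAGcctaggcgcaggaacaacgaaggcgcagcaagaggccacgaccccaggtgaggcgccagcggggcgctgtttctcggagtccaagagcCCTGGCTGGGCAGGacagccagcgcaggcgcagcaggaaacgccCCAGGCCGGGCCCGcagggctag

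Fut9, which also makes Lewis x, was lower at -1.26, -0.45, -0.41 and -0.69 (mean -0.70 ± 0.39, 1.63-fold, adjusted p = 0.0494). Array 1 was the lowest. The general epithelial marker medians were -0.99, -0.24, -0.48 and -0.66 on arrays 1 to 4, also lowest on array 1 but with arrays 2 and 3 in the other order. A relation to the Fut9 ratios was not tested. The Fut9 cKO levels of 10.08 to 10.92 lay below the control levels of 11.20 to 11.37. The adjusted p was 0.0575, 0.0989, 0.0127 and 0.177 when arrays 1 to 4 were left out in turn, and the second tested probe had a mean of -0.38 (adjusted p over probes 0.225). The call held under 6 of the 16 settings.

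The enzymes of the H antigen, Fut1 and Fut2, did not pass. Fut2, the secretor enzyme, was at 0.23, 0.56, 0.98 and 0.33 (mean 0.52 ± 0.33, adjusted p = 0.0787), and at 0.71 with an adjusted p of 0.0218 without array 1. Fut1 was at -0.19 ± 0.16 (0.182), and its cKO RNA passed the background criterion on 2 arrays of 4. Fut8, the enzyme of core fucose on N-glycans, had a ratio of 0.02 ± 0.05 (0.873), and Fut10 one of 0.22 ± 0.22 (0.241). Fut7, the enzyme of sialyl Lewis x on leukocytes, and Fut4-ps1 were not tested. The group median over 7 tested genes was -0.11, and it reached 0.00 under 1 setting.

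**Figure D4:**
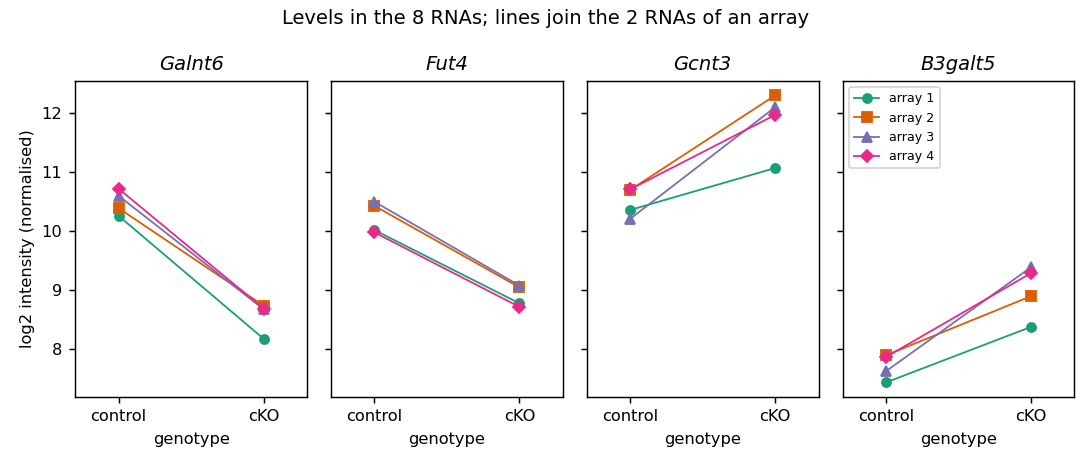
Normalised log2 intensity (y axis) of Galnt6, Fut4, Gcnt3 and B3galt5 in the control and cKO RNA (x axis) of each array, with lines joining the 2 RNAs of an array. In each panel all 4 lines run the same way and the 2 genotypes do not overlap.

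All 20 sialyltransferases were tested, and by their brightest probes none was called. Their ratios ran from -0.40 to 0.23 with a median of 0.09, which stayed above 0 under every setting. The lowest was St6gal1, the main enzyme of sialylated N-glycan ends, at -0.11, -0.52, -0.57 and -0.41 (mean -0.40 ± 0.21, adjusted p = 0.0579). Without array 1 its ratio was -0.51 with an adjusted p of 0.0339. St8sia1, the GD3 ganglioside synthase, was at 0.28, 0.24, 0.19 and 0.21 (mean 0.23 ± 0.04, adjusted p = 0.0583). St3gal1 and St6galnac2, which cap O-glycans, were at 0.09 ± 0.12 (0.484) and -0.23 ± 0.22 (0.199). The second St3gal1 probe, dimmer but above background in all 8 RNAs, was higher on each array (0.29, 0.49, 0.52 and 0.44; mean 0.44, adjusted p over probes 0.0161), so the probes of this gene do not give the same call. By the brightest probe the 6 St3gal genes lay between 0.05 and 0.19, and the largest SD of the group was that of St8sia6, at 0.42.

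Of 12 tested sulfotransferases of the Chst family 3 rose and none fell, with a median of 0.18 that ranged from 0.11 to 0.28 over the settings. The ratio was above 0 for 11 of the 12, and for 50.7% of all tested genes. No Chst gene was called without array 4 or in the fit of separate channels with no block, and Chst2 was called lower with scaling between arrays, with the mean of all probes and with the array as a block. Chst3, which sulfates chondroitin on N-acetylgalactosamine, was at 0.31, 0.26, 0.27 and 0.55 (mean 0.35 ± 0.14, 1.27-fold, adjusted p = 0.0401). Its cKO levels of 11.51 to 11.95 lay above the control levels of 11.20 to 11.40. Leaving out array 1, 3 or 4 gave adjusted p-values of 0.157, 0.123 and 0.134.

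Chst13, a chondroitin sulfotransferase of another ring position, was at 0.29, 0.51, 0.72 and 0.47 (mean 0.50 ± 0.18, 1.41-fold, adjusted p = 0.0274). Both genotypes were dim, at 6.70 to 7.59 in the cKO and 6.41 to 7.08 in the control, and overlapped across arrays. The second probe had a mean of 0.15 (adjusted p over probes 0.282), and with Agilent's processed signals the ratio was 1.05. Leaving out array 2, 3 or 4 gave adjusted p-values of 0.0876, 0.0582 and 0.0989. Chst8, which sulfates the terminal sugar of glycoprotein hormones, was at 0.50, 0.30, 0.61 and 0.56 (mean 0.49 ± 0.14, 1.41-fold, adjusted p = 0.0136). Its levels also overlapped across arrays, at 7.28 to 8.24 against 6.77 to 7.75, and the adjusted p was 0.0517, 0.0623 and 0.0508 when array 1, 3 or 4 was left out. With processed signals the Chst8 ratio was 0.81.

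Chst1, an enzyme of keratan sulfate, was at 0.70, 0.21, 0.20 and 0.44 (mean 0.39 ± 0.23, adjusted p = 0.0806, and 0.0467 without array 3). Chst2, which sulfates N-acetylglucosamine of selectin ligands, was the 1 Chst gene below 0, at -0.16, -0.48, -0.09 and -0.33 (mean -0.27 ± 0.18, adjusted p = 0.0501). Chst14, the dermatan sulfate enzyme, was at 0.18 ± 0.27 (0.411), and Chst11, a chondroitin enzyme, at 0.25 ± 0.14 (0.109). Chst4 and Chst9 were not tested. The lists of smooth muscle, mesenchyme and endothelium, cells that make much chondroitin and dermatan sulfate, had medians of 0.15, 0.10 and 0.19 on the same arrays. Their part in the Chst ratios was not tested.

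In the heparan sulfate group 2 of 9 tested genes fell and none rose, with a median of -0.02. Hs6st1, which places sulfate on glucosamine in heparan sulfate, was at -0.42, -0.41, -0.34 and -0.57 (mean -0.44 ± 0.10, 1.35-fold, adjusted p = 0.013). Within each array the cKO RNA was lower, while across arrays the levels overlapped, at 9.59 to 10.59 in the cKO and 10.01 to 11.11 in the control, array 1 holding the lowest of both. The adjusted p was 0.0682 without array 1, 0.0596 without array 4 and 0.051 in a fit of the separate channels with the array as a block. Hs3st5, which makes rare sulfated motifs of heparan sulfate, was at -0.34, -0.70, -0.62 and -0.43 (mean -0.52 ± 0.17, 1.44-fold, adjusted p = 0.0194). Its cKO levels of 7.80 to 8.05 lay below the control levels of 8.14 to 8.67, and the adjusted p was 0.0626 without array 2 and 0.0702 without array 3.

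Other heparan sulfate enzymes did not pass. Ndst1, the main enzyme that opens the chain to sulfation, had a ratio of -0.12 ± 0.23 (adjusted p = 0.489), and Hs6st2 one of 0.11 ± 0.16 (0.443). Hs3st6 was at -0.80, -0.08, -0.13 and -0.71 (mean -0.43 ± 0.37, adjusted p = 0.164), a case in which arrays 1 and 4 were low and the others near 0; it is named after its values were seen. Hs3st2, Hs3st3a1, Hs3st3b1, Hs6st3 and Ndst4 were not tested. The hyaluronan synthases gave no call. Has2, the main synthase of embryonic mesenchyme, was at -0.15 ± 0.18 (0.339) and the antisense transcript Has2os at 0.05 ± 0.12 (0.708). Has1 was at -0.05 ± 0.31 (0.864) and Has3 at -0.07 ± 0.02 (0.45). Both Has1 and Has3 were dim, at mean log2 intensities of 6.98 and 6.78, and signal over background limits their ratios.

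The 17 genes that were not tested included 7 that were not well above background in most spots of any RNA, namely B3gnt3, Gcnt7, Fut4-ps1, B4galnt3, Hs3st2, Galnt9 and Chst4. The remaining 10 passed in some RNAs but not in all RNAs of a genotype. Galnt13 passed in 2 cKO RNAs and 1 control RNA, and Fut7 in 1 and 2. No direction is given for them. Signal shared between probes of close paralogs, such as Fut4 and its pseudogene, was not examined.

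Genes that act beside these enzymes were described from 6 lists. Of 25 tested genes of chain cores and branching outside the named families, 2 rose and 2 fell, with a median of 0.02. Mgat5, which branches N-glycans, fell by 0.37 ± 0.10 (adjusted p = 0.0277), and C1galt1, which extends the first O-glycan sugar, by 0.47 ± 0.23 (0.0487; named after its values were seen). Mgat4c, a gene of the N-glycan branching family, rose by 0.54 ± 0.32 (0.0388), and B3galnt1, the globoside synthase, by 0.26 ± 0.06 (0.048). Mgat5 and Mgat4c were dim, at mean log2 intensities of 6.96 and 7.5, and signal over background limits their ratios. Of 28 genes of sugar nucleotide donors and their transporters none fell, and Galk1, galactokinase, rose by 0.24 ± 0.06 (0.0475).

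Of 28 genes of the glycosaminoglycan backbone and its editing, 1 rose and 3 fell. Extl1, of the exostosin family, fell by 0.78 ± 0.23 (adjusted p = 0.0113), Hyal1, a hyaluronidase, by 0.45 ± 0.10 (0.0135), and Sulf1, which removes sulfate from heparan sulfate outside the cell, rose by 0.40 ± 0.07 (0.0153). Among 23 proteoglycan core proteins 1 was called. Sdc1, the epithelial syndecan that carries heparan sulfate chains, fell on every array (-1.43, -1.47, -1.51 and -1.27; mean -1.42 ± 0.11, 2.68-fold, adjusted p = 0.00057). Of 15 galectins and mucin-type carriers 4 rose and 2 fell. Lgals3, a galectin that binds lactosamine, fell by 1.58 ± 0.45 (0.00525), and Muc15, a membrane mucin, was called lower with no size given, since its cKO RNA passed the background criterion on 1 of 4 arrays. Muc20, another membrane mucin, rose by 0.89 ± 0.43 (0.0175; 0.27, 1.06, 1.02 and 1.22). Of 18 genes of fringe and other protein O-glycans 1 fell, Large2, which extends matriglycan, by 0.31 ± 0.09 (0.0362).

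Printed levels followed quantile normalisation of average intensities between arrays, while the ratios of the main fit were not scaled between arrays. The pairs within arrays carry the comparison, since each ratio was taken within an array. With 1 array left out, 2 to 5 of the enzymes were called higher and 4 or 5 lower. Galnt6, Fut4 and B3galt5 kept their calls in every case, and Galnt14 and Galnt5 lost theirs in 1. The part that the lower basal and epithelial marker levels had in the falls of Galnt6, Fut4, Fut9 and Sdc1 was not tested.

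**Figure D5:**
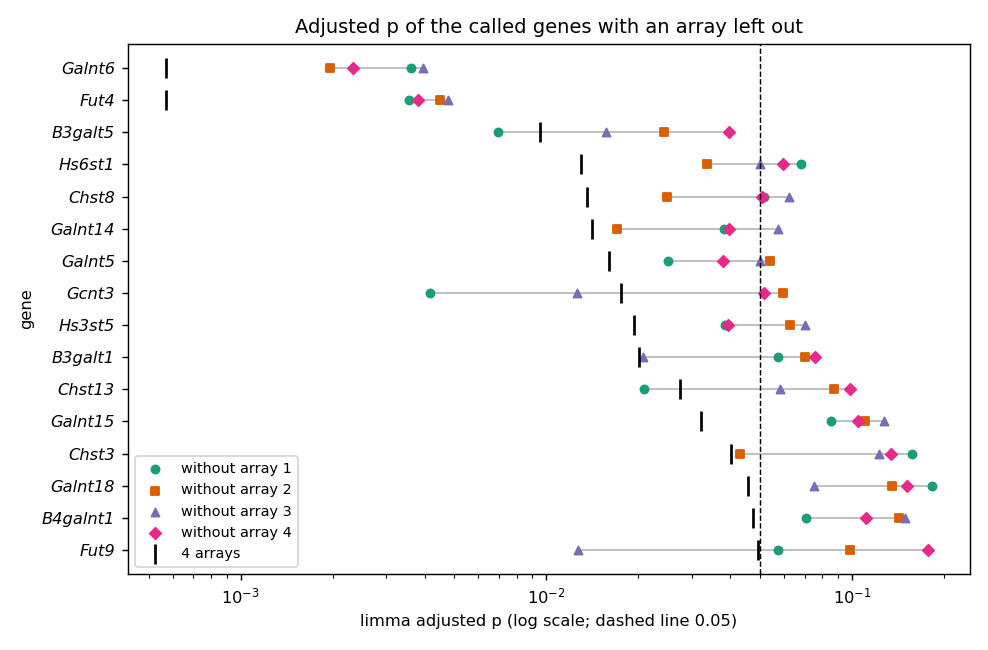
Limma adjusted p (x axis, log scale) of the 16 called genes (y axis) with 4 arrays (black bars) and with each array left out (points). Galnt6, Fut4 and B3galt5 stay left of the dashed line at 0.05, and the points of Galnt15, Galnt18 and B4galnt1 all lie to its right.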

How the data were processed

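The deposited scanner files hold spot intensities of both channels and a log10 ratio per spot, which the authors extracted from the images (Agilent Feature Extraction 10.7.3.1, per the submitters' processing notes). The deposited value table holds log2 ratios and served as an alternative. For probes brighter than the median, they follow the turned scanner ratios on each array with a slope of 0.99 to 1.00. Between 7718 and 12487 of its values per array are exactly 0, which limits it as an alternative. Mean signals were background-corrected (normexp, offset 50) and normalised by loess, outlier-marked spots (3.04% to 3.58%) were left out, and ratios were turned to cKO over control. Per array 39429 probes have 4 spots each. Probe positions are those of the files (mm9). A gene was tested if over 0.5 of a probe's spots were well above background on all 4 arrays in at least 1 genotype. The test was limma's (version 3.58.1, R 4.3.3) with a dye term and 2 residual degrees of freedom plus the prior, adjusted by Benjamini-Hochberg over 18161 genes. The script was tested on simulated data. The number of arrays limits the precision. All arrays lay on 1 slide. Every called gene is named, as are untested genes, the 2 brightest uncalled genes per role group and those with an adjusted p under 0.1; from companion lists, up to 3 called genes with the lowest p. The genes and lists were chosen with earlier results of these data known. Pairing by array comes from the shared hybridisation and is built into the ratios. One gene of a companion list is not reported here.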

Additional observations from a re-analysis of the deposited data

How the results depend on the processing

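For the enzymes, the 8 rises became 5 with the deposited value table, 13 in a fit of separate channels with the array as a replicate block (intraspot correlation 0.741), 3 with no block, and 2 to 5 with an array left out. The 8 falls became 5, 11, 3 and 4 to 5 in the same order. Over all genes the 530 rises became 259, 1237, 120 and 277 to 359, and the 1023 falls became 596, 1731, 438 and 554 to 768. Fits with 3 arrays have fewer samples and keep the dye term, so that 1 dye orientation rests on a single array. That array weighs as much as the remaining arrays together, and ratios with an array left out are not plain means. The cause of the other shifts was not tested. Of the 16 calls, 16 held without the dye term, with median centring or with both genotypes above background, 15 without background correction or with scaling between arrays, 14 with no offset or no filter on dim probes, 13 with processed signals or the mean of all probes, 14 with the array as a block, 10 with the value table, 6 with no block and 6 to 8 with an array left out. Uncalled genes near 0 changed sign with an array left out: Galnt16 ranged from -0.04 without array 1 (-0.02 without array 4) to 0.15, Has2os from -0.02 without array 4 to 0.12, and Fut8 from 0.00, just below 0 without array 4, to 0.05. No called gene changed sign. Dim genes such as Chst13 and Chst8 had larger ratios with processed signals, and signal over background limits them.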
